A study of Saccharomyces cerevisiae with 25 samples.

Results

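The 3 yeast libraries taken 105, 120 and 135 min after phosphate was withdrawn were compared with the 1 library of cells still in high-phosphate medium at 0 min, to ask which transcripts differed from high phosphate once the earliest changes had receded. These are 4 of the 25 samples of a time course in Saccharomyces cerevisiae sampled every 15 min for 6 hours, and the 3 libraries at 30, 45 and 60 min served as the earlier interval. Every sample, the one at 0 min included, came from the strain background BY4741, a haploid of mating type a, with the genotype pho84pr-YFP, phm3 damp. The first construct drives yellow fluorescent protein from the promoter of PHO84, and PHM3 is now called VTC4, a gene for the enzyme that builds the vacuole's polyphosphate. A DAmP allele disturbs the 3′ end of a transcript and thereby usually lowers it. Cells without this allele were not analysed here, and since the cells were washed before the move, the wash and the loss of phosphate cannot be told apart. Values are log2 RPM, where RPM is reads per 1000000 reads of the library, and a difference of 1 is a doubling. A gene is listed only from 10 reads upwards. Of 6648 named genes, 5052 had a value in all 4 libraries and were tested, 611 had a value in some of the 4 and 985 in none.

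Budding yeast meets a shortage of inorganic phosphate through the PHO pathway. In rich medium the cyclin-dependent kinase Pho80-Pho85 phosphorylates the transcription factor Pho4 and keeps it out of the nucleus, and when phosphate is scarce the inhibitor Pho81 blocks the kinase, so that Pho4 enters and, with Pho2, activates its targets. The targets serve uptake of phosphate (PHO84, PHO89), its release from organic compounds outside the cell (PHO5, PHO11, PHO12), storage as polyphosphate in the vacuole (the VTC genes) and regulation of the pathway itself (PHO81, SPL2). Separately, sudden changes of medium raise the general stress genes and lower genes for making ribosomes.

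Pho4 binds CACGTG and, less strongly, CACGTT. The stretches below hold such sites upstream of genes described next: transporter, polymerase subunits, regulator and acid phosphatases that were higher, and VTC4, whose difference did not pass. They were read from the RefSeq genome of build R64 on the gene's own strand, 5′ to 3′, with the motifs in capitals (AACGTG is CACGTT on the other strand).
PHO84, chrXIII:26042-26251, minus strand: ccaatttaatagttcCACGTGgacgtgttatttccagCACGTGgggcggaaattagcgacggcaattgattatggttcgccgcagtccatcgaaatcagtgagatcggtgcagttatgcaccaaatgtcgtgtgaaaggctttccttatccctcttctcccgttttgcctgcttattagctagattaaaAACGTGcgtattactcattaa
VTC3, chrXVI:517276-517378, minus strand: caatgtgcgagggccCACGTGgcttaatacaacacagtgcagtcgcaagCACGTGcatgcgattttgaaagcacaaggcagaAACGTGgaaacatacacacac
VTC1, chrV:302634-302669, plus strand: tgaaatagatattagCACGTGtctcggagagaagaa
SPL2, chrVIII:375177-375476, minus strand: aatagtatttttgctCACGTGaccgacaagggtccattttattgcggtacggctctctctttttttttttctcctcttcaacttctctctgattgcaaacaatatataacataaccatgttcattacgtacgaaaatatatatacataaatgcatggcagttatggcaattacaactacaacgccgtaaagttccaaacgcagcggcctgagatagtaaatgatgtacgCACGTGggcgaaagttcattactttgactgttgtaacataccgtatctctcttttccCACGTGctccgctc
PHO5, chrII:431184-431328, minus strand: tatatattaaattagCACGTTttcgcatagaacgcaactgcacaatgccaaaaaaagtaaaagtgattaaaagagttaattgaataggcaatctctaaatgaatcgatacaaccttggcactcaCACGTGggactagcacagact
PHO12, chrVIII:551666-551836, plus strand: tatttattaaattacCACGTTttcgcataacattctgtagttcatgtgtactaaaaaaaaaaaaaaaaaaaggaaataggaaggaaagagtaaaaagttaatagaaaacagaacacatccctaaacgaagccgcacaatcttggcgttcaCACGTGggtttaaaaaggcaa
VTC4, chrX:413492-413539, minus strand: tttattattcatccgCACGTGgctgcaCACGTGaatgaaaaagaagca
The last sites shown lie 262 bp before the coding start of PHO84, 278 bp for VTC3, 157 bp for VTC1, 90 bp for SPL2, 253 bp for PHO5, 283 bp for PHO12 and 113 bp for VTC4. SPL2 has a further CACGTG at 31 bp. On both strands of the 500 bp before the coding start, CACGTG was present in 371 of 5920 coding genes (6.3%) and CACGTT in 954 (16.1%), and no 6 bases can match both motifs. Of the 19 tested PHO genes, 15 held CACGTG. The list was assembled from known Pho4 targets, so this share describes how it was chosen. The stretch shown for PHO84 lies within the annotated open reading frame YML122C (chromosome XIII, 26038 to 26418), the one for SPL2 between SPL2 and ARO9, and the one for VTC3 also lies upstream of CTF19, which runs the other way.

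Depth was 4.275 M reads at 0 min, 2.521, 4.263 and 1.049 M at 105, 120 and 135 min, and 1.465, 1.811 and 2.971 M at 30, 45 and 60 min. Intervals from reads cover counting error only, so none are given. The labels do not say that the samples came from separate cultures, so p-values reflect only how much neighbouring time points scatter. The spread of the 0 min library, which has no replicate, was borrowed from the other samples. HIS3, LEU2 and MET17, which BY4741 lacks, were not listed in any of the 4 libraries, and URA3 was near the lowest value that can be listed, at 2.55 to 3.25 log2 RPM. The a-specific receptor gene STE2 stood at 8.67 to 9.19 and its alpha-specific counterpart STE3 at 4.47 to 5.10. The 120 min library stands apart from its neighbours: 267 genes differed at least 2-fold from the mean of the other 2 libraries, against 56 for 105 min and 158 for 135 min. ADA2, a subunit of the SAGA coactivator, was at 8.92 log2 RPM in it, against 11.45, 11.29 and 10.95 at 0, 105 and 135 min. Calls and list medians that moved by over 1.5 times without this library are given with and without it.

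Few transcripts passed in limma between 105 to 135 min and high phosphate, and those that passed as higher were genes of phosphate acquisition, storage and signalling. In limma, 9 of 5052 genes (0.178%) passed an adjusted p under 0.05 with at least a 2-fold difference: 8 were higher (0.158%) and 1 was lower (0.0198%). All 8 higher genes belong to the 22-gene list of the PHO regulon, of which 19 could be tested, and the 1 lower gene was FCP1. At 30 to 60 min, against the same 0 min library, 105 of 5001 genes passed (2.1%), 100 of them higher (2%) and 5 lower (0.1%), and 49 passed without 45 min and 66 without 60 min. By single library, 162 genes lay at least 2-fold from 0 min at 15 min, 261 at 30 min, 441 at 45 min, 304 at 60 min, 583 at 75 min and 181 at 90 min. The count was 37 at 105 min, 245 at 120 min and 180 at 135 min, and then 626, 1093 and 1266 at 150, 165 and 180 min. Of these libraries 105 min had the fewest, while 120 and 135 min lay within the range of the earlier ones. Over the 5052 genes the median difference was 0.03 and 55.2% of genes lay above 0 min. At an unadjusted p under 0.05 there were 102 genes (2.02%). The same 9 genes passed without 120 min, and 7 of them without 135 min, PHO5 and PHO81 being lost. With the spread estimated from the 4 libraries alone, 0 genes passed and 91 had an unadjusted p under 0.05.

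**Figure D1:**
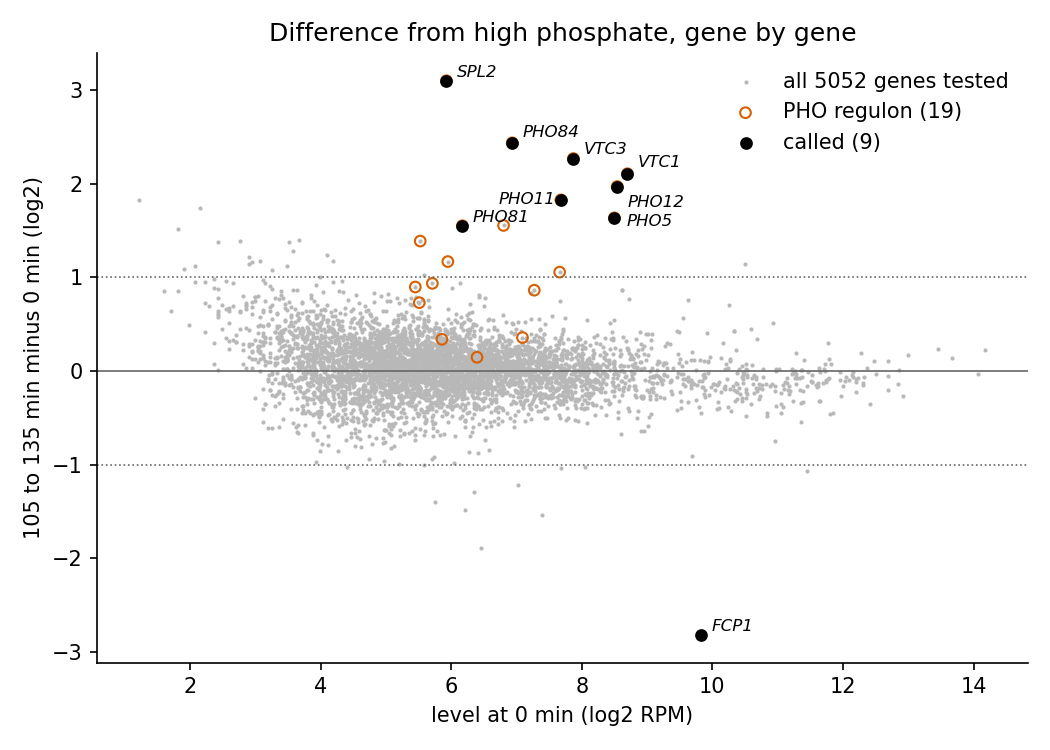
Each point is a gene; the horizontal axis is its level at 0 min and the vertical axis the mean of 105, 120 and 135 min minus 0 min, both on the log2 RPM scale, with dotted lines at a 2-fold difference. Black points are the 9 genes that passed, rings the 11 PHO genes that did not, and FCP1 is the 1 black point below 0.

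PHO84 encodes the high-affinity phosphate transporter of the plasma membrane (chromosome XIII, 24037 to 25800, minus strand). Its level was 6.93 log2 RPM at 0 min and 9.24, 9.35 and 9.53 at 105, 120 and 135 min. The 3 later values lie close together, at 9.37 ± 0.14 (SD, n = 3), and all lie above 0 min. It rose 5.42-fold (log2 difference 2.44 ± 0.24 SE, limma adjusted p = 3.3e-06). Its span overlaps YNCM0001W, an annotated non-coding RNA, and the use of strand in counting is not given in the sources used here. In the 12 libraries from 195 to 360 min it stood at 10.24 to 10.63. PHO89, the sodium-phosphate symporter, went from 5.53 to 6.80, 6.61 and 7.34, higher in 3 of 3 libraries, and its difference of 1.39 ± 0.36 did not pass (limma adjusted p = 0.322). PHO86, an endoplasmic reticulum protein needed to deliver Pho84 to the cell surface, differed by 0.86 ± 0.23 (limma adjusted p = 0.388). GIT1, the glycerophosphoinositol transporter, was at 2.07 at 0 min and was listed at 120 min only, at 1.49, so it was not tested.

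Of the 4 polyphosphate polymerase genes in the PHO list, VTC1, VTC2, VTC3 and VTC4, 2 passed, and differences between the genes were not tested. VTC3, a regulatory subunit (XVI, 514511 to 517018, minus strand), went from 7.87 log2 RPM at 0 min to 9.81, 10.23 and 10.39. All 3 values are far above 0 min, and VTC3 rose 4.83-fold (2.27 ± 0.21 SE, limma adjusted p = 3.3e-06). VTC1, the small membrane subunit (V, 302806 to 303195, plus strand), went from 8.70 to 10.51, 11.14 and 10.78. It rose 4.31-fold (2.11 ± 0.31, limma adjusted p = 0.000738). VTC2, which replaces Vtc3 in the other form of the complex, went from 7.66 to 8.52, 8.63 and 9.00. Its difference of 1.06 ± 0.23 missed the threshold (limma adjusted p = 0.0722) and passed in 4 alternative settings. VTC4, the DAmP gene, was at 6.40 at 0 min and at 6.64, 5.87 and 7.11 later. These values lie on both sides of 0 min, with a difference of 0.15 ± 0.65 that is smaller than its error. The value below 0 min is that of 120 min, and the difference was 0.48 without 120 min and −0.14 without 135 min. PPN1, a polyphosphatase that shortens the stored chains, stood at 7.09 and then at 7.45, 7.39 and 7.51, a difference of 0.36 ± 0.21.

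The 3 secreted acid phosphatases of the PHO list, PHO5, PHO11 and PHO12, were all higher. PHO3, counted below with the genes of phosphate signalling, did not pass. PHO12 (VIII, 552099 to 553502, plus strand) went from 8.54 log2 RPM to 10.31, 10.19 and 11.05, and PHO11 (I, 225460 to 226863, plus strand) from 7.68 to 9.13, 9.27 and 10.13. In both the 135 min library was the highest. PHO12 rose 3.92-fold (1.97 ± 0.28 SE, limma adjusted p = 0.000449) and PHO11 3.55-fold (1.83 ± 0.32, limma adjusted p = 0.00956). PHO5 (II, 429548 to 430951, minus strand) went from 8.50 to 9.80, 9.96 and 10.65, and rose 3.11-fold (1.64 ± 0.32, limma adjusted p = 0.0226). PHO5 is the least firm of the 8: without 135 min its difference was 1.38 with a limma adjusted p of 0.0883. The 3 genes are close copies, and their recovered reads were whole numbers in 0% of libraries. Whether reads were shared out between them was not tested, and the 3 values are not counted as independent. PHO5 later reached 12.23 to 12.92. PHO8, the vacuolar alkaline phosphatase, differed by 0.90 ± 0.43 and PHM8, a phosphatase acting on lysophosphatidic acid and nucleotides, by 0.94 ± 0.37; neither passed (limma adjusted p = 1 for both). HOR2, a glycerol-phosphate phosphatase, differed by 1.17 ± 0.37 (limma adjusted p = 0.831). GDE1, which splits glycerophosphocholine, differed by 0.73 ± 0.32 (limma adjusted p = 1).

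Among the regulators, SPL2 showed the highest difference of all genes tested. Spl2 lowers low-affinity phosphate transport when phosphate is scarce (VIII, 374654 to 375100, minus strand). Its level was 5.93 log2 RPM at 0 min and 8.36, 9.37 and 9.36 later. The 105 min library is the lowest of the 3, and all are well above 0 min. SPL2 rose 8.59-fold (3.10 ± 0.40 SE, limma adjusted p = 0.000148). PHO81, the inhibitor of Pho80-Pho85 (VII, 954674 to 958210, minus strand), went from 6.17 to 7.47, 7.84 and 7.87. It rose 2.93-fold (1.55 ± 0.28, limma adjusted p = 0.0118), but without 135 min the limma adjusted p was 0.0557, with a difference of 1.48. PHM6, a gene of unknown function, went from 6.80 to 7.95, 8.05 and 9.07. Its difference of 1.56 ± 0.36 did not pass (limma adjusted p = 0.128). With voom weights PHM6 passed, at 1.61 (limma adjusted p = 0.0313). KCS1, an inositol hexakisphosphate kinase, differed by 0.34 ± 0.27. PHM7 and CTF19 had no value in any of the 4 libraries.

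**Figure D2:**
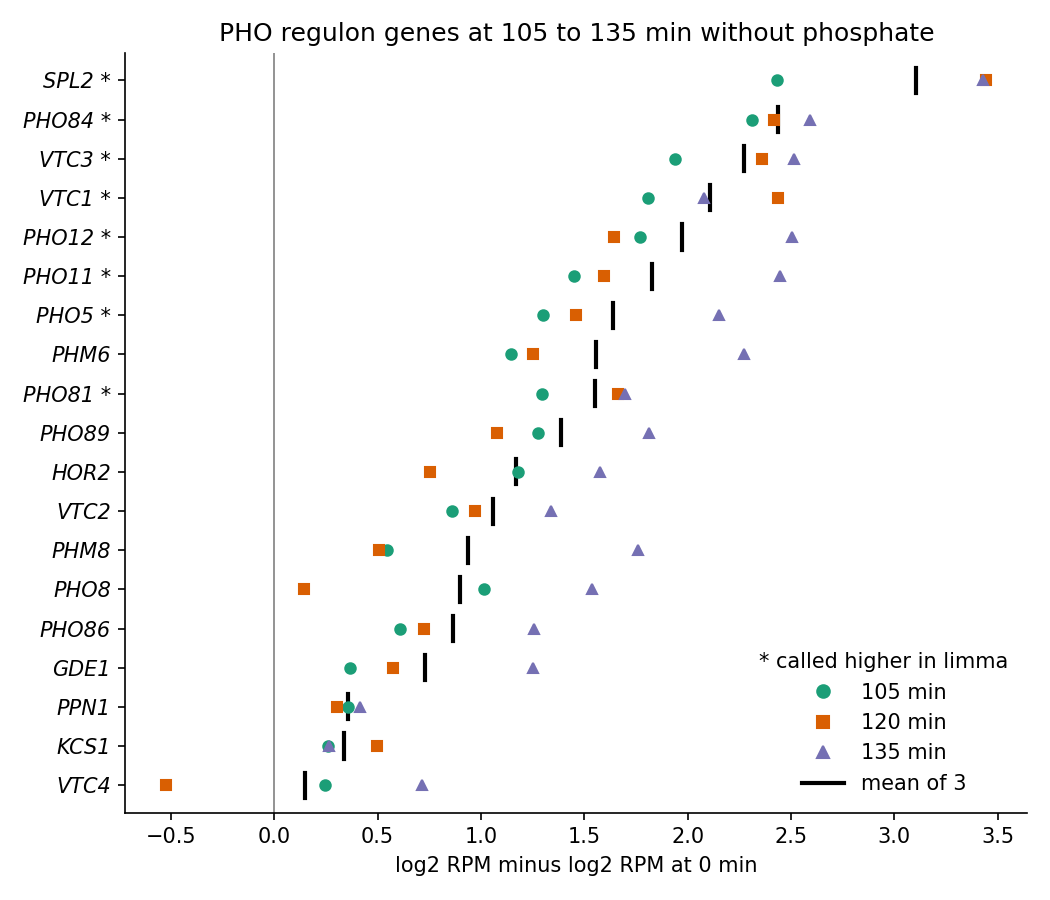
Difference from the 0 min library (horizontal axis, log2 RPM) for the 19 tested PHO genes, 1 symbol per library and a black bar at the mean of 3, with asterisks on the 8 that passed. All 3 libraries lie above 0 in every gene but VTC4, whose 120 min value is the 1 point below.

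The PHO list had a median difference of 1.39 and a range of 0.15 to 3.10, and all 19 tested members lay above 0 min, against 55.2% of all genes. In 18 of them each of the 3 libraries lay above 0 min, as in 26.4% of all genes, VTC4 being the exception. By library the median was 1.18 at 105 min, 1.08 at 120 min and 1.76 at 135 min. The direct comparison of 105 to 135 min with 30 to 60 min had a median of −0.12 over the list, with members between −0.71 and 0.41, and 0 of 19 passed in limma, where 1.7% of all genes did. A p that misses the threshold does not show equal levels, and without 135 min PHO8 passed as lower (−1.03, limma adjusted p = 0.0491). In the 30 to 60 min libraries PHO84 was at 9.11, 9.41 and 9.17, VTC3 at 10.23, 10.31 and 10.38, and SPL2 at 8.63, 8.74 and 8.94. PHO81 stood there at 7.82, 7.79 and 7.90. All 4 of these genes overlap in level between the 2 intervals. From 195 to 360 min levels were higher for PHM6 (10.51 to 11.25), PHO89 (8.84 to 9.44) and PHM8 (9.44 to 10.06) than in any of the 3 libraries at 105 to 135 min.

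The other genes of phosphate signalling and low-affinity transport showed no shared difference. Of 14 tested, 0 passed and 7 lay above 0 min, with a median of −0.01 (0.02 without 120 min). The furthest from 0 were DDP1, a phosphatase of inositol pyrophosphates and polyphosphate, which went from 6.13 log2 RPM to 6.87, 6.82 and 7.52 (0.94 ± 0.26, limma adjusted p = 0.475), and VIP1, an inositol pyrophosphate kinase (0.76 ± 0.29, limma adjusted p = 1).

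FCP1 encodes the phosphatase that removes phosphates from the tail of RNA polymerase II (XIII, 820256 to 822454, plus strand). It was at 9.83 log2 RPM at 0 min and at 7.11, 7.31 and 6.61 at 105, 120 and 135 min. The fitted difference was −2.82 ± 0.30 (0.142-fold, limma adjusted p = 9.76e-06). In the 24 libraries without phosphate FCP1 ranged from 6.53 to 7.55, and the 0 min library alone was higher. Its recovered reads were whole numbers in only 20% of libraries. Whether part of its reads was shared with other rows was not tested. With 1 library at 0 min, a property of that library and of high phosphate cannot be told apart.

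Without regard to the test, 45 genes (0.891%) had a mean at least 2-fold from 0 min. Of these 33 were higher (0.653%) and 12 lower (0.238%). The higher genes comprised 12 PHO genes and 21 others. The others were mostly of low abundance: 11 of the 21 were below 3.25 log2 RPM at 0 min, the lowest level that could be listed at 135 min. Such genes were tested only if they were higher at 135 min, and of the 137 tested genes below that level 125 had a positive difference, so no count over them is read as a change. Examples from the gene lists are HOR7, a stress-responsive gene at 10.50 log2 RPM at 0 min and 11.38, 11.47 and 12.07 later (1.14 ± 0.30, limma adjusted p = 0.388), ARO9, an aromatic aminotransferase that shares its upstream region with SPL2 (1.18 ± 0.35, limma adjusted p = 0.778), and ENA2, a sodium pump (1.40 ± 0.45, limma adjusted p = 0.976). The next 3 were picked after their values were seen. RTR1, a further phosphatase of the polymerase tail, went from 2.15, which is 19 reads, to 3.67, 3.84 and 4.18 (1.74 ± 0.39, limma adjusted p = 0.145). PIC2, a mitochondrial carrier of phosphate and copper, went from 3.52 to 4.80, 4.38 and 5.52 (1.38 ± 0.45, limma adjusted p = 0.981). YML122C, which contains the PHO84 sites shown above and overlaps the same non-coding RNA, went from 2.90 to 4.02, 4.02 and 4.32 (1.22 ± 0.48, limma adjusted p = 1).

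The lower genes rest largely on the 120 min library. Of 12, only FCP1 and FRE1 remained at least 2-fold lower without it. Of the 33 higher genes 31 remained so. However, 11 of the 33 lay at 0 min below the lowest level listed at 135 min. Those were tested only because they were higher at 135 min, so the 2 counts are not compared. YBT1, a vacuolar bile acid transporter, was at 6.46 log2 RPM at 0 min and at 6.42, 1.23 and 6.06 later. SWP1, a subunit of oligosaccharyl transferase, was at 5.76 and then at 5.71, 1.72 and 5.63. In both the 120 min value stands alone. Recovered reads were whole numbers in under 80% of libraries for 9 of these 12 genes, against 7.82% of all tested genes. Whether reads shared between rows had a part in these values was not tested. FRE1 and SIT1, by contrast, were low in all 3 libraries. FRE1, a ferric reductase, went from 6.21 to 5.06, 4.93 and 4.18 (−1.49 ± 0.41, limma adjusted p = 0.575), and SIT1, a siderophore transporter, from 7.69 to 6.69, 6.57 and 6.70 (−1.03 ± 0.32, limma adjusted p = 0.792).

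**Figure D3:**
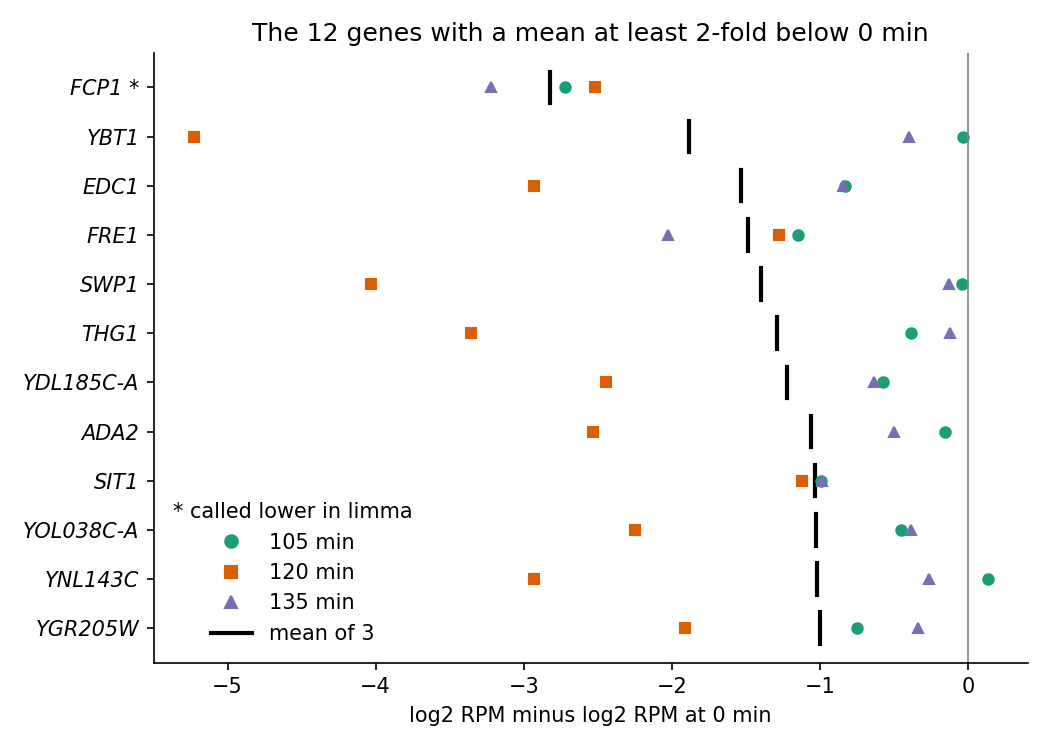
Difference from the 0 min library (horizontal axis, log2 RPM) in each library for the 12 genes whose mean lay at least 2-fold lower. In 9 of the 12 the 120 min square lies far to the left of the other symbols, while FCP1, FRE1 and SIT1 are low in all 3 libraries.

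The direct comparison of 105 to 135 min with 30 to 60 min uses no 0 min library. In limma 85 of 5001 genes passed, 7 of them higher and 78 lower in the later interval. Of these, 22 passed without 120 min, where 23 genes passed in all, and the count was 46 without 105 min, 177 without 135 min, 25 without 45 min and 53 without 60 min.

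The general stress response, the genes that the factors Msn2 and Msn4 raise under many stresses, had values nearer 0 min than before. Of 52 tested genes 0 passed at 105 to 135 min, with a median of 0.48 (0.65 without 120 min, 0.33 without 135 min). Above 0 min lay 49 of them, against 55.2% of all genes. At 30 to 60 min, against the same library, 19 passed (9 without 45 min, 10 without 60 min) and the median was 1.36. HSP12, a small membrane-protecting protein, was at 8.72 log2 RPM at 0 min, at 10.84, 11.50 and 11.72 at 30, 45 and 60 min and at 9.77, 8.87 and 9.83 at 105, 120 and 135 min. The 2 intervals do not overlap, and HSP12 was lower in the later one by 1.87 ± 0.34 on the log2 scale (limma adjusted p = 0.00424 in the direct comparison). CTT1, the cytosolic catalase, went from 3.52 to 5.09, 5.50 and 5.60 and then to 3.75, 3.97 and 3.63 (direct difference −1.61 ± 0.32, limma adjusted p = 0.00924). In that direct comparison 15 of the 52 were lower (1.56% of all genes were). Without 120 min only 1 was, without 105 min 6, and without 135 min 25. Without the 45 min library 2 of the 52 were lower and without 60 min 6. The list median in the direct comparison was −0.83 and stayed between −1.01 and −0.67 in these fits. The counts also depended on scaling: the 19 at 30 to 60 min became 7 after centring each library on its median and 2 after quantile normalization, and the 15 became 10 and 2. The medians under both scalings were 1.20 and 1.15 at 30 to 60 min, 0.42 and 0.40 at 105 to 135 min, and −0.74 and −0.71 in the direct comparison.

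By library, the stress genes had a median of 0.36 at 105 min, 0.22 at 120 min and 0.89 at 135 min, followed by 1.63 at 150 min and 2.78 at 180 min. The 135 min library thus sits between the low point and the later rise. PHO genes shared part of that course, with a median of 1.73 at 60 min, 1.08 at 120 min and 2.95 at 180 min.

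Heat shock chaperones were near their starting level, with a median of 0.19 (0.09 without 135 min, 0.25 without 120 min) and 0 passing. Of 27 tested, 22 lay above 0 min (19 after centring), against 55.2% of all genes. The median at 30 to 60 min was 0.81. HSP82, the inducible Hsp90, was at 8.38 log2 RPM at 0 min, at 9.88, 10.21 and 10.05 in the earlier interval and at 8.51, 8.01 and 9.16 in the later one (direct difference −1.49 ± 0.23, limma adjusted p = 0.00172) and its recovered reads were whole numbers in only 4% of libraries. HSP42, a small heat shock protein gene, went from 4.52 to 6.88, 7.21 and 6.26 and then to 5.01, 4.61 and 5.63 (−1.70 ± 0.37, limma adjusted p = 0.0153). In all, 6 of 27 chaperone genes passed as lower in the direct comparison, against 1.56% of all genes. The count was 1 without 120 min, 1 without 45 min, 4 without 105 min and 10 without 135 min. It was 4 after centring and 3 after quantile normalization. Trehalose and glycogen genes, which make the storage sugars of stressed cells, had a median of 0.49 with 15 of 17 above 0 min, and 1.12 in the earlier interval. The later median was 0.17 without 135 min and 0.67 without 120 min. TSL1, a subunit of trehalose synthase, was at 4.03, then at 6.49, 6.98 and 6.14, then at 4.86, 3.93 and 5.86 (direct difference −1.66 ± 0.41, limma adjusted p = 0.0284). TPS2, trehalose-phosphate phosphatase, was the other of the 2 that passed (−1.12 ± 0.30, limma adjusted p = 0.042), and 0 passed without 105 min, without 120 min, without 30 min or without 45 min, against 8 without 135 min and 1 without 60 min. After centring or quantile normalization 0 passed.

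**Figure D4:**
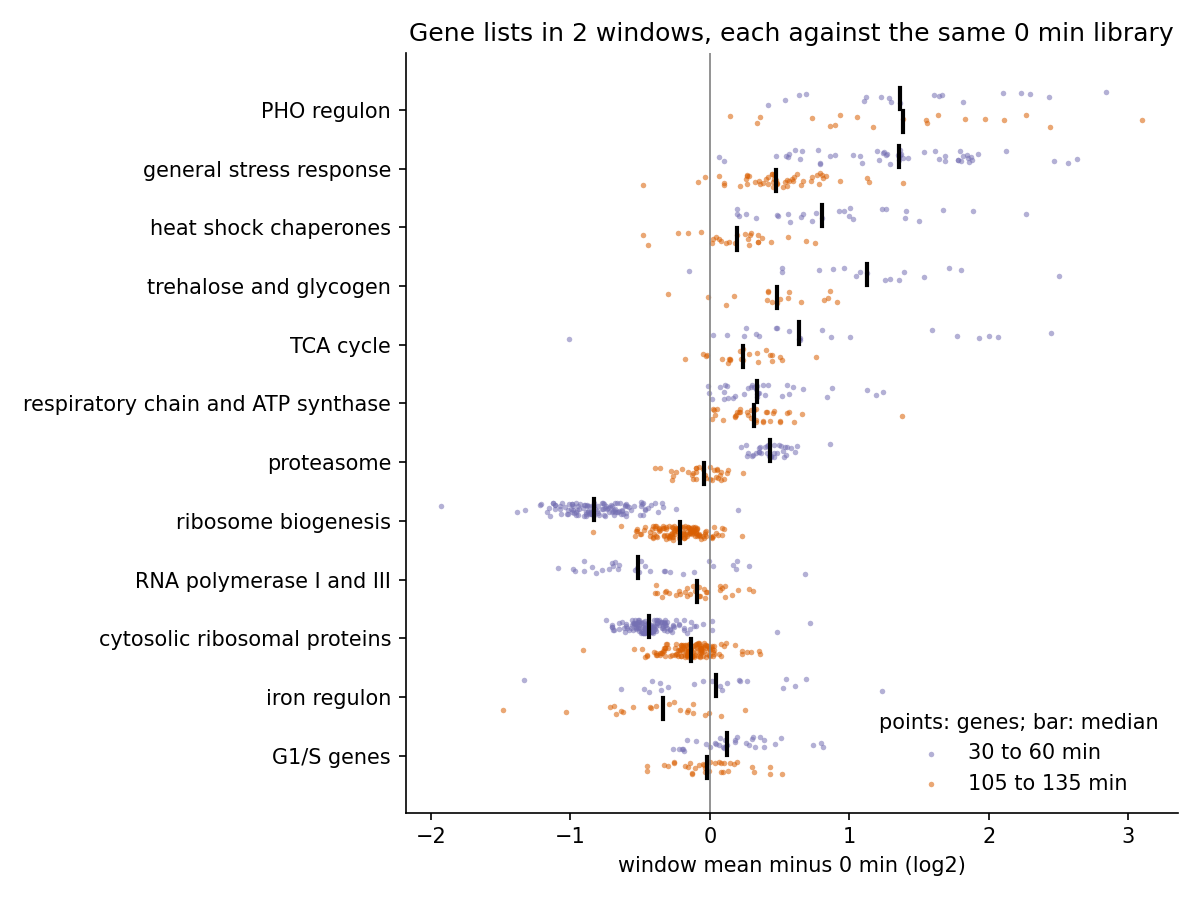
Differences from the 0 min library (horizontal axis, log2) of the members of 12 gene lists at 30 to 60 min and at 105 to 135 min, 1 point per gene and a black bar at each median. The stress lists sit nearer 0 in the later interval (general stress median 1.36, then 0.48), while the PHO medians are 1.36 and 1.39; both intervals share the 0 min library.

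Genes for building ribosomes lay on the lower side. Of 125 ribosome biogenesis genes 0 passed against 0 min, 114 lay below it (44.8% of all genes did) and the median was −0.21, against −0.83 at 30 to 60 min. The median by library was −0.13 at 105 min, 0.07 at 120 min and −0.54 at 135 min, so the direction differed between the libraries. The list median was −0.34 without 120 min and −0.06 without 135 min. In the direct comparison 124 of 125 were above 30 to 60 min (41.3% of all genes were), with a median of 0.58, and 3 passed, against 0.14% of all genes. They were DBP2, an RNA helicase at 7.16, 6.84 and 6.91 log2 RPM earlier and 8.25, 9.13 and 7.40 later (1.29 ± 0.31, limma adjusted p = 0.026), NSR1, a nucleolin-like protein (1.05 ± 0.25, limma adjusted p = 0.026), and FAF1, a pre-rRNA processing factor (1.14 ± 0.30, limma adjusted p = 0.0388). All 3 calls were lost without 105 min, without 120 min, without 45 min or without 60 min, and FAF1 was lost without 30 min. Without 135 min 17 genes of the list passed. After quantile normalization 1 gene of the list passed and after centring 4. Cytosolic ribosomal protein genes had a median of −0.14, with 115 of 137 below 0 min, and −0.44 in the earlier interval. Their median shrank to −0.06 after quantile normalization. Genes of RNA polymerases I and III had a median of −0.09, with 23 of 32 below.

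**Figure D5:**
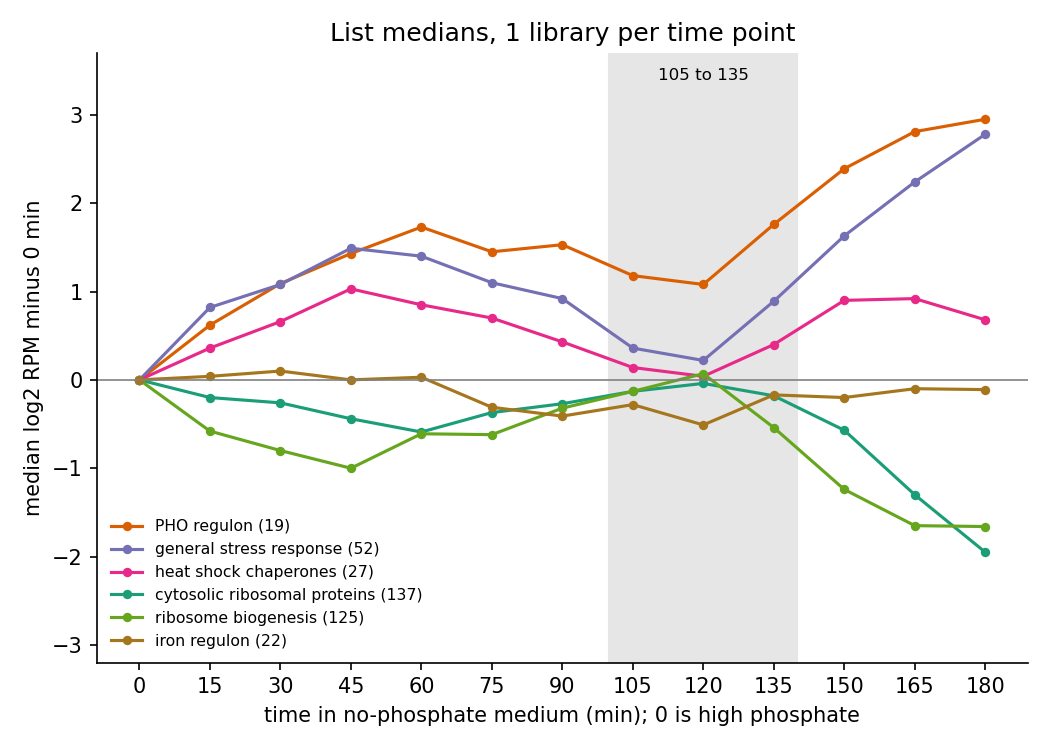
Median difference from 0 min (vertical axis, log2 RPM) of 6 gene lists against time (horizontal axis, min), 1 library per point, with 105 to 135 min shaded. The stress median falls from 1.49 at 45 min to 0.22 at 120 min and climbs to 2.78 at 180 min, while the PHO median stays at 1.08 or more from 30 to 180 min.

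In the mitochondrion, the respiratory chain and ATP synthase genes, which were not separated from 0 min one by one (0 of 35 passed), all lay above it, with a median of 0.31. After centring each library on its median 30 of 35 did so. RIP1, the Rieske iron-sulfur subunit, was the furthest, from 2.43 log2 RPM to 3.75, 4.04 and 3.63, but rested on 23 reads at 0 min (1.38 ± 0.61, limma adjusted p = 1). At 0 min it lay below 3.25 log2 RPM, the lowest level that could be listed at 135 min. RIP1 was therefore tested only because it was higher at 135 min, and its direction is not read as a change. COX6, a cytochrome oxidase subunit, went from 5.95 to 6.30, 6.70 and 6.81 (0.66 ± 0.28, limma adjusted p = 1). In the earlier interval the median was 0.34, and in the direct comparison 0 of 35 passed. Mitochondrial ribosomal protein genes had a median of 0.20, with 56 of 65 above 0 min and 52 after centring. Of all genes, 55.2% lay above 0 min.

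The TCA and glyoxylate cycle genes had a median of 0.24 at 105 to 135 min (0.15 without 135 min), with 0 passing, and 0.64 at 30 to 60 min. Of 23 tested, 19 lay above 0 min, against 55.2% of all genes. In the direct comparison 6 of 22 were lower, against 1.56% of all genes. CIT2, the peroxisomal citrate synthase, went from 5.29 log2 RPM at 0 min to 7.37, 7.67 and 8.16 and back to 6.09, 5.81 and 6.25 (−1.68 ± 0.24, limma adjusted p = 0.000562). PYC1, a pyruvate carboxylase, went from 6.95 to 8.88, 9.10 and 9.08 and then to 7.67, 7.01 and 7.68 (−1.57 ± 0.22, limma adjusted p = 0.000507). IDH1, a subunit of isocitrate dehydrogenase, differed by −1.63 ± 0.29 (limma adjusted p = 0.00367). CIT2, PYC1 and IDH1 passed also without 120 min, when 3 of the list did.

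Genes of the iron regulon, which take up iron when it is scarce, had a median of −0.34, with 0 passing. Of 22 tested, 20 lay below 0 min, against 44.8% of all genes. The median at 30 to 60 min was 0.04, and it was −0.11 after centring and −0.12 after quantile normalization. The later median was −0.24 without 120 min and −0.41 without 135 min. By library it was −0.28 at 105 min, −0.51 at 120 min and −0.17 at 135 min. In the direct comparison 2 genes passed as lower: FIT2, a cell-wall protein that binds siderophores, at 6.63, 6.76 and 6.14 log2 RPM and then 5.17, 5.21 and 5.02 (−1.38 ± 0.32, limma adjusted p = 0.0231), and ISU1, the scaffold for iron-sulfur clusters (−1.24 ± 0.28, limma adjusted p = 0.0174). Without 105 min, 120 min or 45 min 0 of the list passed, without 30 min or 60 min 1, and without 135 min 3 did. After quantile normalization 1 passed. Of all genes, 1.56% were lower in the direct comparison. Sulfur and methionine genes had a median of −0.27, with 17 of 23 below 0 min, and 0.35 at 30 to 60 min. MET6, methionine synthase, and MET14, adenylylsulfate kinase, passed as lower in the direct comparison (−1.09 ± 0.20 and −1.16 ± 0.26, limma adjusted p = 0.00424 and 0.0181). Without 120 min or 60 min 0 of the sulfur list passed, without 45 min 1, and without 135 min or 30 min 4. After centring 1 passed and after quantile normalization 0. Proteasome genes had a median of −0.04 and, at 30 to 60 min, of 0.43. G1/S genes, with 0 of 34 passing, had a median of −0.02 (0.03 without 120 min).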

How the data were processed

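RNA-seq libraries of the 4 samples at 0, 105, 120 and 135 min were analysed, with the other 21 samples of the series used to estimate the spread. Per the submitters' processing notes, the tool was Bowtie and the genome R64. How reads were counted, and whether strand was used, is not given in the sources used here. As deposited by the authors, values are log2 RPM: raised from log2, each column deposited by the authors sums to 1000000. The series' text speaks of normalization to the first time point, which the values do not show. The lowest value in each column equals 10 reads, so reads and depth were recovered by division, and 94.9 to 97.5% of values under 200 reads came out within 0.02 of a whole number. Rows without a gene name (51, with 0% of reads) and 2 rows sharing a name were left out. Coordinates are those of the RefSeq annotation of R64, which matched 5915 names by symbol and 47 by synonym.

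With limma 3.58.1 (R 4.3.3) a mean was fitted for each of 10 groups of consecutive time points, on log2 RPM as deposited and with no pseudocount. Genes with a value in every library compared were tested. A gene passed at a Benjamini-Hochberg adjusted p under 0.05 over all genes tested and a log2 difference of 1 or more in size. Residuals had a median standard deviation of 0.289. The script was tested on simulated data. Gene lists are described by counts and medians, with no test. Named were the genes that passed against 0 min, all PHO genes, up to 4 genes that passed per list, or else the 2 furthest from 0, and up to 10 per direction in the direct comparison. The comparison, the members and the lists were chosen with earlier results of these data known. Alternatives were other scalings, voom weights, filters, pseudocounts, spread estimates and leaving out libraries. One of them, leaving out the 5 libraries of low ADA2 (75, 120, 255, 345 and 360 min), was chosen after seeing the data.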

Additional observations from a re-analysis of the deposited data

Results flagged for a closer look

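The difference between the intervals was tested directly, and 7 genes were higher and 78 lower at 105 to 135 min than at 30 to 60 min, so their distance from 0 min differed between the 2 intervals. The 10 with the lowest values were BOP2 (log2 difference −2.19), TMA10 (−2.11), RTC3 (−1.99), HSP12 (−1.87), YPR036W-A (−1.79), PDH1 (−1.79), HSP42 (−1.70), CIT2 (−1.68), YFR052C-A (−1.67) and HXK1 (−1.66). Among them BOP2, YPR036W-A, PDH1 and CIT2 passed in every alternative run. PDH1, a mitochondrial protein of propionate use, was at 3.23 log2 RPM at 0 min, at 4.81, 5.41 and 5.71 in the earlier interval and at 3.31, 3.74 and 3.52 in the later one, so the later values lay next to the starting level. HXK1, a hexokinase of cells short of glucose, was at 8.26, 9.16 and 9.26 and then at 7.35, 6.27 and 8.11. The row YFR052C-A has nearly the same values (7.33, 6.24 and 8.09 in the later interval), and the 2 are not counted as separate evidence. Without 120 min TMA10, RTC3, HSP12, HSP42, YFR052C-A and HXK1 no longer passed, with log2 differences of −1.76, −1.66, −1.55, −1.47, −1.18 and −1.17.

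The 7 higher genes were DBP2 (1.29), AAH1 (1.27), OLE1 (1.18), FAF1 (1.14), NSR1 (1.05), IZH4 (1.02) and PXR1 (1.01). OLE1, the fatty acid desaturase, was at 8.33 log2 RPM at 0 min, at 7.02, 6.82 and 7.27 in the earlier interval and at 8.08, 8.40 and 8.17 in the later one. It passed in every alternative run (limma adjusted p = 0.00293 with all libraries). AAH1, adenine deaminase, was at 8.06, then at 6.51, 6.33 and 6.80, then at 8.01, 8.28 and 7.16. Without 120 min the other 6 did not pass, at 0.86 for DBP2, 1.04 for AAH1, 0.82 for FAF1, 0.76 for NSR1, 0.83 for IZH4 and 0.75 for PXR1. The part of the 120 min library in these differences was not tested further.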

How the results depend on the processing

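Against 0 min, 9 genes passed. The count was 4 (3 higher and 1 lower) after quantile normalization, 15 with voom weights and 0 with the spread taken from the contrast alone, and the other settings that kept all libraries gave 8 to 10. PHO members passing were 8, with 3 after quantile normalization and 0 with the contrast's own spread. With voom weights the same 8 passed and so did PHM6 and VTC2. SPL2, PHO84, VTC3 and FCP1 passed in every setting but the last. VTC4 went from 0.15 to −0.137 without 135 min and to 0.481 without 120 min. Leaving out 1 library gave 7 to 9 genes, and 6 to 8 PHO members.

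At 30 to 60 min against 0 min, 105 genes passed, 48 after centring, 22 after quantile normalization, 230 with voom, 257 with the contrast's own spread, 172 without the 5 libraries of low ADA2, and 49 to 105 with 1 library left out. The median log2 difference of all genes in that comparison was 0.117, against −0.037 after centring and −0.011 after quantile normalization. In the direct comparison of the intervals, 85 passed, 29 after quantile normalization, 195 with voom, 52 with a pseudocount of 10, 48 with the contrast's own spread, 42 without the 5 libraries, and 23 to 177 with 1 library left out. PHO members passing there were 0, and 0 to 1 with 1 library left out. The cause of these changes was not tested. No paired analysis was possible because the labels give the samples no replicate numbers. The 135 min library, at 1.049 M reads, limits which low genes could be tested.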

Other observations

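Of the genes without a value in all 4 libraries, FMP45 was the 1 gene missing at 0 min and listed in all 3 later libraries, at 1.99, 1.49 and 3.63 log2 RPM, close to the lowest values that could be listed. Of the 5574 genes listed at 0 min, 71 were listed in none of the 3 later libraries. The 2 counts follow unlike rules, since FMP45 had to be listed in all 3, the shallow 135 min library included. They are therefore not compared, and neither is read as a gain or loss of transcripts. Across the 2955 genes with a value in every sample, the correlation of each library with the 0 min library was 0.932 at 45 min, 0.987 at 105 min, 0.970 at 120 min, 0.967 at 135 min and 0.784 at 180 min. These are correlations across genes, which are not independent, and depth differs between the libraries.

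When the 5 libraries of low ADA2 were left out, RTR1 (1.77), FMP33 (1.67) and YNL097W-A (2.37) passed as higher than at 0 min, with limma adjusted p of 0.0337, 0.0337 and 0.00647. YNL097W-A rested on 10 reads at 0 min. It and RTR1 lay below 3.25 log2 RPM there, the lowest level that could be listed at 135 min. Both were therefore tested only because they were higher at 135 min, and their direction is not read as a change. With voom weights FRE1 (−1.28) and CCC2, a copper pump needed for iron uptake (−1.04), passed as lower, with limma adjusted p of 0.000296 and 0.0134. So did YGR205W (−1.545) and SWP1 (−2.886), with limma adjusted p of 0.0258 and 0.0493. The low value of SWP1 stood alone among its later libraries, as described above, so this setting also passed a gene of that kind.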
